A study of Mus musculus with 8 samples.

Results

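Genes that copy DNA and genes that divide the cell were followed in the mandibular arch, the embryonic swelling that forms the lower jaw, in mouse embryos with and without Alk5 in their neural crest. The set named 40 genes, 20 for DNA replication and 20 for mitosis, grouped by their known roles. Of these, 39 were measured among 18194 genes, and Ccnb1 was not analysed here. Each gene was read through the brightest of its probe sets, taken over all arrays. RNA came from 4 Wnt1-Cre;Alk5 fl/fl mutant arches and 4 Alk5 fl/fl control arches at embryonic day 11.5, all labelled C57BL/6J with sex not determined, and each sample was read on 1 array. Alk5 is the older name of Tgfbr1, which encodes a TGF-beta receptor. Both groups carry the floxed gene and the mutants alone are labelled with Cre under Wnt1 control, which is active in neural crest, so cells of the arch from other sources keep the receptor. An effect of the driver cannot be told apart from that of losing Alk5. The labels do not say that each sample came from its own embryo or litter, and the p-values reflect spread among 8 samples that may be technical in part. Values are log2 expression per probe set after RMA normalization, and a gene passed the test at a limma adjusted p under 0.05.

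A dividing cell first licenses its replication origins by loading the Mcm2 to Mcm7 ring with the help of Cdc6 and Cdt1, then fires them when cyclin E and Cdk2 turn the ring into an active helicase. Later, cyclin B with Cdk1 starts mitosis, the spindle attaches to centromeres under the watch of a checkpoint, and Cdc20 with its ligase ends the phase. E2F factors drive the replication genes at the start of S phase, while the mitosis genes are held back by the DREAM complex and switched on later by B-Myb and FoxM1. At this stage the arch grows out quickly, and TGF-beta is best known for slowing the division of epithelial cells.

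None of the 39 genes passed the test in either direction (0 of 39, limma adjusted p from 0.253 to 0.997), where 2.14% of all genes did so, 0.835% higher and 1.31% lower in the mutants. A share of 0 is near that background and is not a result about these genes by itself. Fold changes of mutant over control ran between 0.842 for Kif23 and 1.08 for Mcm3, and 28 of 39 log2 fold changes were smaller than 0.1 in size. The median size was 0.055, against 0.098 over all genes and 0.073 over the 3971 genes with a mean log2 value of at least 10. The median standard error (SE) was 0.075, against 0.102 and 0.080. Small changes with narrow intervals were thus common among bright genes and not particular to this set. All 39 of the 95% intervals lay within 0.5 of 0 on the log2 scale, and the widest bounds were a fold of 0.732 below (Kif23) and 1.22 above (Cdc45). Of the intervals, 38 included 0, the exception being Kif23. At an unadjusted p under 0.05 the test named 1 of 39, again Kif23, against 13.5% of all genes, 4.52% higher and 8.95% lower in the mutants. Intervals were computed gene by gene and are not adjusted for their number.

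**Figure D1:**
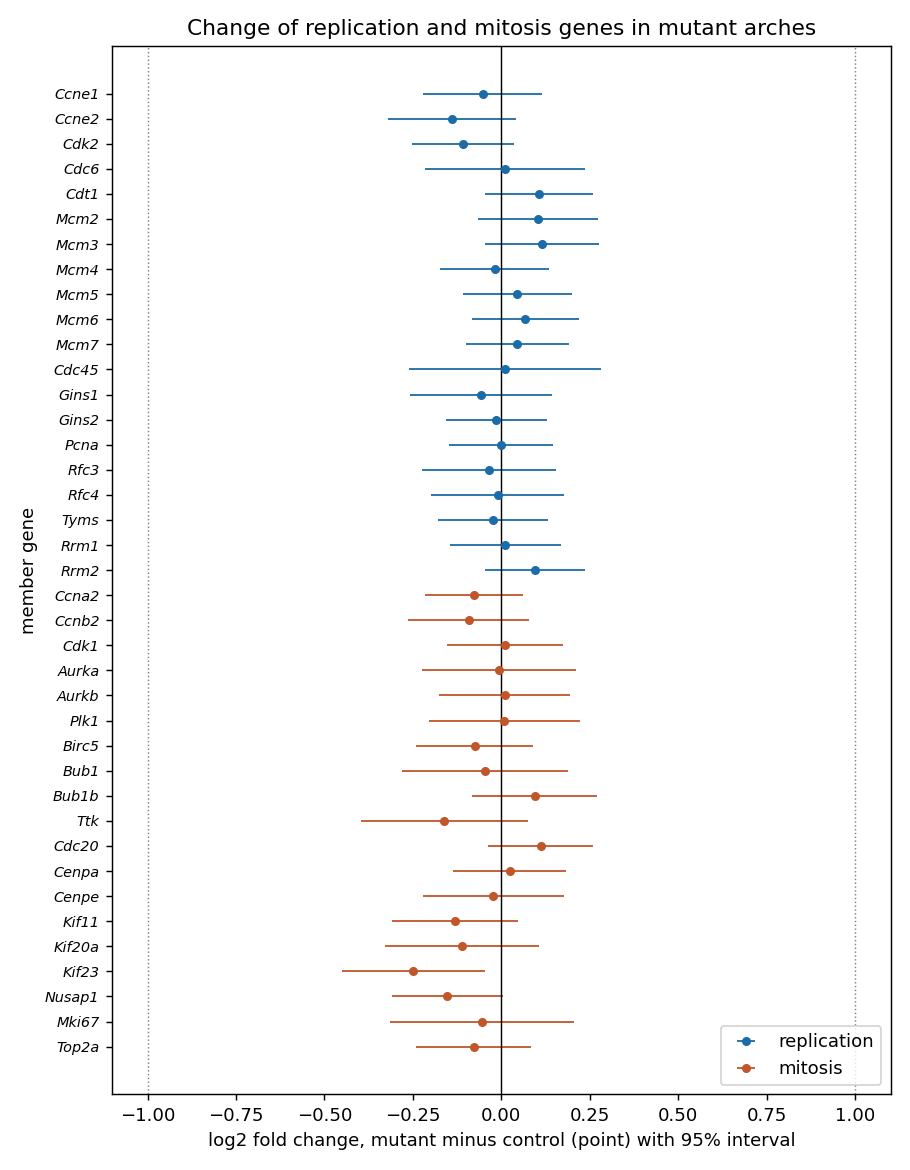
Log2 fold change of each measured gene, mutant minus control, with its 95% interval, replication genes in blue above mitosis genes in orange. Dotted lines mark a log2 change of 1 either way, and every interval stays within 0.5 of 0.

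The arrays themselves gave a few facts that touch these values. Medians over all probe sets lay between 6.28 and 6.42 in log2 units, and pairs of arrays correlated at 0.986 or more. Mutant replicate 3 stood apart, with a spread over probe sets (SD) of 2.42 against 2.52 to 2.56 on the others, and 0.993 was the lowest correlation between arrays without it. Tgfbr1 averaged 12.98 ± 0.0115 in mutants and 12.79 ± 0.0844 in controls (log2 value, SD, n = 4 each; limma adjusted p = 0.232), and since its probe sets may lie outside the deleted part this reading does not check the labels. All 14 listed markers of arch mesenchyme were measured, with mean log2 values of 6.06 to 13.10 over the 8 arrays, and RMA values have no true zero by which absence could be read. Of the 14, 5 had a log2 fold change above 0 and 9 below (median -0.07), and 1 passed the test, Dlx2, with 0.56. The lowest was Msx1, at -0.58 (limma adjusted p = 0.0675), whose mutant values all lay below the control values.

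Read through their brightest probe sets, replication genes were split evenly by sign. Of 20, 10 had a log2 fold change above 0 and 10 below, with a median of 0.0046 beside -0.0067 over all 18194 genes, and under the 17 alternative settings that median took either sign. As a class they averaged 11.70, 11.68, 11.59 and 11.73 on mutant arrays 1 to 4, against 11.61, 11.64, 11.68 and 11.74 on control arrays 1 to 4 (mean log2 value of 20 genes). The groups overlapped throughout, mutant array 3 being the lowest and control array 4 the highest. No p is given for such means, since the genes were chosen with earlier results of these data known.

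Cyclin E and its kinase open the sequence. Ccne2, one of the cyclins E, read 10.66, 10.68, 10.65 and 10.83 in mutant arches, against 10.88, 10.68, 10.86 and 10.95 in control arches, a log2 fold change of -0.14 ± 0.0808 (SE, limma adjusted p = 0.518). Mutant arrays 1 to 3 were the lowest, and mutant 4 lay among the controls. Its partner kinase gene Cdk2 read 10.48, 10.48, 10.44 and 10.38 in mutants and 10.55, 10.50, 10.63 and 10.54 in controls, a log2 fold change of -0.11 ± 0.0644 (adjusted p = 0.533). Every mutant value lay below every control value, with mutant 2 just under control 2. The other cyclin E gene, Ccne1, differed by -0.05. These 3 genes together averaged 10.86 ± 0.0518 in mutants and 10.96 ± 0.0449 in controls (SD over arrays, n = 4 each). The groups overlapped, with mutant 4 (10.92) above control 2 (10.89).

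Both licensing factors had log2 fold changes above 0. Cdt1, which brings the Mcm ring to origins, read 12.51, 12.50, 12.56 and 12.54 in mutants, against 12.43, 12.31, 12.42 and 12.52 in controls (log2 fold change 0.11 ± 0.0683, adjusted p = 0.563). Control 4 was the only control within the mutant range. Cdc6, which acts with it, differed by 0.01 with an interval of -0.22 to 0.24. Its lowest reading came from mutant 3.

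The replicative helicase is made of the Mcm ring, Cdc45 and the GINS complex. Of these 9 genes, 6 had a log2 fold change above 0 and 3 below, with a median of 0.05. Mcm3 read 12.22, 12.20, 12.24 and 12.26 in mutants, against 12.02, 12.03, 12.21 and 12.20 in controls (log2 fold change 0.11 ± 0.0722, adjusted p = 0.558). Controls 1 and 2 lay well below the mutants while controls 3 and 4 lay beside them. Mcm2 showed a similar order, at 12.23, 12.24, 12.20 and 12.17 in mutants and 12.01, 12.02, 12.15 and 12.26 in controls (0.10 ± 0.0762, adjusted p = 0.635). Here control 4 was above all mutants. Mcm6 (0.07), Mcm7 (0.05), Mcm5 (0.05) and Mcm4 (-0.02) differed by less. GINS subunit gene Gins1 read 11.37, 11.31, 11.07 and 11.41 in mutants, against 11.24, 11.42, 11.36 and 11.37 in controls (-0.06 ± 0.0891, adjusted p = 0.83), with mutant 3 the lowest array. Gins2 differed by -0.01. Cdc45, which joins the ring when origins fire, differed by 0.01, with the largest SE of the set (0.121).

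At the fork, Pcna encodes the sliding clamp that tethers DNA polymerase. It read 14.04, 14.00, 13.93 and 14.05 in mutants, against 13.93, 14.04, 14.01 and 14.04 in controls. The groups covered nearly the same range, and the log2 fold change was -8.0e-04 ± 0.0655 (95% interval -0.15 to 0.15). Rfc3 and Rfc4, subunits of the loader that opens the clamp, differed by -0.03 and -0.01. In nucleotide supply, the ribonucleotide reductase genes Rrm2 and Rrm1 differed by 0.10 and 0.01. Tyms, which encodes the enzyme that makes thymidylate, differed by -0.02. Its brightest probe set averaged 7.32, the dimmest reading of the 39 genes. The other probe sets of Tyms averaged 3.71 to 4.28 and differed by -0.07 to 0.21.

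Promoter windows from RefSeq (GRCm38.p6, 250 bases before to 50 after each start) were matched for 32 of the 39 genes; Ccne2, Gins1, Gins2, Mcm4, Ccna2, Aurkb and Kif20a had none and are named only. Windows were searched on both strands for 4 spellings of the E2F element (TTTCCCGC, TTTGGCGC, TTTCGCGC and TTTGCCGC), and 8 of 17 replication windows (47.1%) held one, against 1 of 16 mitosis windows (6.25%) and 2.26% of all 32851 windows. Mcm7 has 2 windows, and in 1 window an E2F word overlapped another searched motif. A match is a description of letters and not a site. The 3 windows below are shown because they belong to the replication genes with values given in full that hold such a word, with the E2F letters in capitals. They lie at chr1:20820263-20820562 (minus strand), chr8:122567765-122568064 (plus strand) and chr10:128705002-128705301 (minus strand), each written 5′ to 3′ along its gene.
Mcm3: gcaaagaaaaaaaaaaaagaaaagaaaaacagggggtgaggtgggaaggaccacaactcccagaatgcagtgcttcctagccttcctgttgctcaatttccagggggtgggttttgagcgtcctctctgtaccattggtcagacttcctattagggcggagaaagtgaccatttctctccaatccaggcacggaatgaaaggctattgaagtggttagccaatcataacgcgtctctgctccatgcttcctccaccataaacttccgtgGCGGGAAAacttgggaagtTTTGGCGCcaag
Cdt1: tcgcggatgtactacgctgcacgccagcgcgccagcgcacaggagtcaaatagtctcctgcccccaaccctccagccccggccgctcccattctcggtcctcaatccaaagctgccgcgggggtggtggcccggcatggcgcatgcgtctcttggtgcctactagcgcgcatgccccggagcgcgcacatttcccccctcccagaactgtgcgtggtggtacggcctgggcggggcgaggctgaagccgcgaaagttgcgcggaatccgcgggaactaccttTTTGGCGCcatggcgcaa
Cdk2: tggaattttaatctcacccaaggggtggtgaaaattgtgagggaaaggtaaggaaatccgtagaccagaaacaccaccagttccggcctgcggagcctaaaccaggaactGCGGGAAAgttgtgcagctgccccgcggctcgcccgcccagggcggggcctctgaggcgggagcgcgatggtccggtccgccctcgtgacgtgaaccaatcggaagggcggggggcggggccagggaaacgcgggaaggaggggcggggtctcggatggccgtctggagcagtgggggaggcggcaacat

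Mitosis genes had more log2 fold changes below 0 than above. Of 19, 6 had a log2 fold change above 0 and 13 below, with a median of -0.05 beside -0.0067 over all genes. The mitosis median stayed below 0 under the 17 alternative settings. Those that changed only the variance model or the threshold, or added a term for replicate number, cannot move a class median. Their mean was 11.68, 11.69, 11.52 and 11.69 on mutant arrays 1 to 4, against 11.59, 11.74, 11.68 and 11.78 on control arrays 1 to 4. The groups overlapped, with mutant 3 again the lowest and control 4 the highest. Without mutant replicate 3, 9 of 19 were above 0, and 15 of the 20 replication genes were. Leaving out control replicate 1 moved the counts the other way, to 2 of 19 mitosis and 7 of 20 replication genes above 0.

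**Figure D2:**
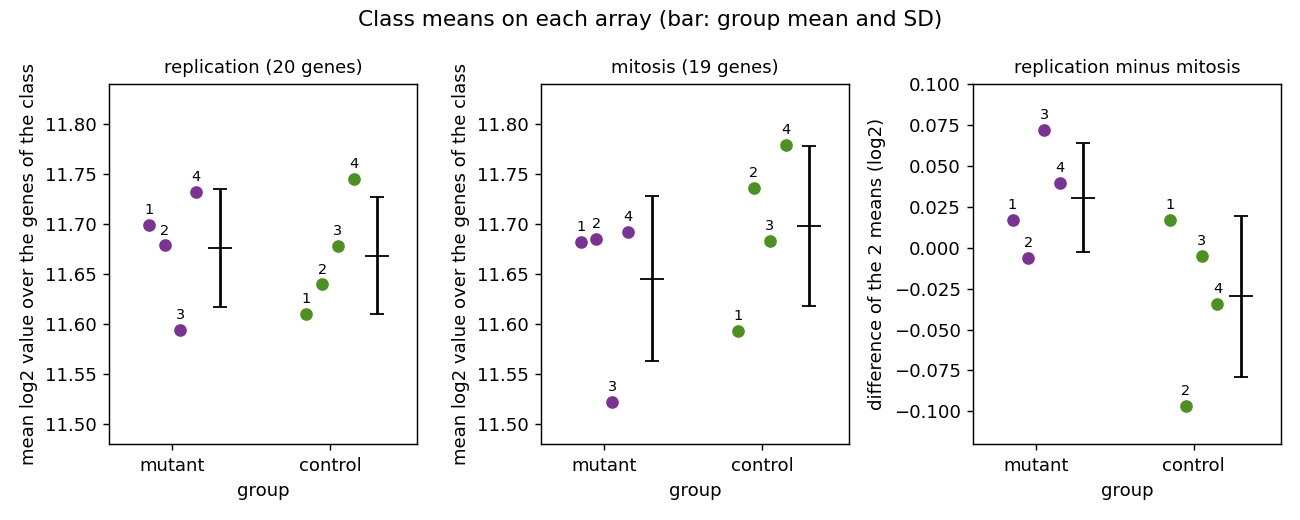
Mean log2 value of the 20 replication genes, of the 19 mitosis genes and the difference of both means on each array, mutants left of controls, numbered by replicate, with the group mean and SD beside the points. Both classes are lowest on mutant array 3 and highest on control array 4, and the groups overlap in all panels.

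Subtracting the mitosis mean from the replication mean of the same array gave 0.02, -0.0066, 0.07 and 0.04 on mutant arrays, against 0.02, -0.10, -0.0049 and -0.03 on control arrays. This difference averaged 0.03 ± 0.0335 in mutants and -0.03 ± 0.0493 in controls (SD, n = 4 each). Mutant 2 lay inside the control range, and mutant 1 was level with control 1 at 2 decimals. The 2 class medians differed by 0.06 on the log2 scale, and between 0.04 and 0.09 over all alternative settings tried. This contrast is a description and has no test.

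Mitotic entry genes were near level. Cdk1, the kinase that starts mitosis, differed by 0.0097 ± 0.0732, and its cyclin gene Ccnb2 by -0.09. Ccna2, a cyclin that works in S phase as well as at mitotic entry, differed by -0.08, and its mutant values of 12.21 to 12.31 lay below control values of 12.32 to 12.37 with mutant 1 and control 1 nearly equal (adjusted p = 0.661). Plk1, Aurkb and Aurka, kinases of centrosome, chromosome and spindle, differed by 0.0086, 0.0091 and -0.0068, and Birc5, the survivin partner of Aurora B, by -0.08. All 4 read lowest on mutant array 3.

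The spindle checkpoint genes and their target Cdc20 had both signs, and 0 of 4 passed. Cdc20, which activates the ligase that ends mitosis, read 13.21, 13.17, 13.23 and 13.14 in mutants, against 12.97, 13.09, 13.09 and 13.14 in controls (log2 fold change 0.11 ± 0.0663, adjusted p = 0.531). All mutants lay above all controls, though mutant 4 and control 4 were equal at 2 decimals. Bub1b, a checkpoint protein gene, read 11.24, 11.22, 11.11 and 11.23 in mutants and 11.00, 11.09, 11.05 and 11.27 in controls (0.09 ± 0.0787, adjusted p = 0.675). Control 4 was the highest of the 8 arrays. Ttk, the kinase that recruits the checkpoint, read 10.55, 10.49, 10.33 and 10.74 in mutants, against 10.54, 10.74, 10.62 and 10.87 in controls (-0.16 ± 0.106, adjusted p = 0.576), with wide overlap. Bub1, the remaining checkpoint kinase gene, differed by -0.05.

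At the centromere, Cenpa encodes the histone variant that marks the site of attachment. It read 12.36, 12.32, 12.27 and 12.38 in mutants, against 12.23, 12.31, 12.26 and 12.44 in controls (0.02 ± 0.0713, adjusted p = 0.917). The mutants fell within the control range. Cenpe, a kinesin of the attachment site, differed by -0.02.

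The 4 spindle and cytokinesis genes all had log2 fold changes below 0, with a median of -0.14, and none passed the test. Kif23, a kinesin of the central spindle that cytokinesis needs, read 10.82, 10.74, 10.47 and 10.68 in mutants, against 10.79, 11.00, 10.98 and 10.93 in controls. Control 1 lay within the mutant range, and mutant 3 was the lowest array. Its log2 fold change was -0.25 ± 0.0904 (95% interval -0.45 to -0.05, adjusted p = 0.253; two-sided exact permutation p = 0.0571, where 0.0286 is the smallest that 70 labelings can give). Without mutant replicate 3 the log2 fold change of Kif23 was -0.18. Nusap1, a protein that bundles spindle microtubules, read 11.72, 11.64, 11.57 and 11.75 in mutants, against 11.80, 11.77, 11.83 and 11.89 in controls (-0.15 ± 0.0699, adjusted p = 0.386). Its groups did not overlap, with mutant 4 just under control 2. Kif11 and Kif20a, motors of the bipolar and the central spindle, differed by -0.13 and -0.11.

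Groups without overlap were found for 4 of 39 genes (Cdk2, Ccna2, Nusap1 and Cdc20), or 10.3%, the same as the 10.3% of all genes. Each of the 4 had a two-sided exact permutation p of 0.0286, which any gene without overlap must give and which adds nothing further. None had an adjusted p under 0.05.

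Mki67, the source of the Ki-67 antigen used to stain cycling cells, read 12.27, 12.69, 12.32 and 12.30 in mutants, against 12.31, 12.67, 12.43 and 12.39 in controls. Replicate 2 was the highest in both groups. The log2 fold change was -0.05 ± 0.116 (adjusted p = 0.881, 95% interval -0.31 to 0.20). Top2a, which untangles chromosomes, differed by -0.08. In bulk tissue, fewer cycling cells and less of these RNAs per cell cannot be told apart.

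Mitosis windows carried a different word. The CHR element, searched as TTTGAA or TTCGAA on both strands, was found in 13 of 16 mitosis windows (81.2%), against 4 of 17 replication windows (23.5%) and 19.2% of all windows. CCAAT, which accompanies it in many mitotic promoters, was in 14 of 16 mitosis windows and 12 of 17 replication windows, against 37.4% of all. Windows of both classes were richer in G and C than the rest, with medians of 57.8% for mitosis, 57.7% for replication and 52.7% for all. The windows of Cdc20, the largest value above 0 among mitosis genes, and of Kif23 and Ttk, the lowest, are shown with the CHR letters in capitals. They lie at chr4:118437294-118437593 (minus strand), chr9:61946750-61947049 (minus strand) and chr9:83834439-83834738 (plus strand).
Cdc20: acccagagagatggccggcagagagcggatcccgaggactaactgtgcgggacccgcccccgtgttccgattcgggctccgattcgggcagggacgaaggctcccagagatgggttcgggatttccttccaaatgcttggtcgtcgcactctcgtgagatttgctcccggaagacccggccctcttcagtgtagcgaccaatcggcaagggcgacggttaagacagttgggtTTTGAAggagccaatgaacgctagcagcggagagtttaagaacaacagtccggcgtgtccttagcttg
Kif23: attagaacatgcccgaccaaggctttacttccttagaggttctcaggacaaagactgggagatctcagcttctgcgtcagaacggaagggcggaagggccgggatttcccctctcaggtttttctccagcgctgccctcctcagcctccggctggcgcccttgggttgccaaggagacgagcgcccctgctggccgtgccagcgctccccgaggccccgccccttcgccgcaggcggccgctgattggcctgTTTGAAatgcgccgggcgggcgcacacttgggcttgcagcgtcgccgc
Ttk: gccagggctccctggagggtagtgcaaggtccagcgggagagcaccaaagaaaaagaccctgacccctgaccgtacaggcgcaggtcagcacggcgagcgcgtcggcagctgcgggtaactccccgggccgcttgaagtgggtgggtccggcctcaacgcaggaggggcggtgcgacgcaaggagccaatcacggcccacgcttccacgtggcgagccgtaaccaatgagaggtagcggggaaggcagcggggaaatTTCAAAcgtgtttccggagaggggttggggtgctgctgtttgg

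A few arrays held many of the lowest and highest values of the set, and no split of the variation by array and group was computed. Mutant array 3 gave the lowest of the 8 values for 23 of 39 genes (59.0%), 14 of them mitosis genes, against 41.8% of all genes and 62.9% of the 3971 genes with a mean log2 value of at least 10. Control array 4 gave the highest value for 14 of 39 (35.9%), against 9.48% of all genes and 12.7% of those 3971. Control array 1 was the lowest for 10 of 39, against 9.24% of all genes, and its share of those 3971 was not computed. The part of these arrays in the class values was not tested beyond leaving each array out.

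**Figure D3:**
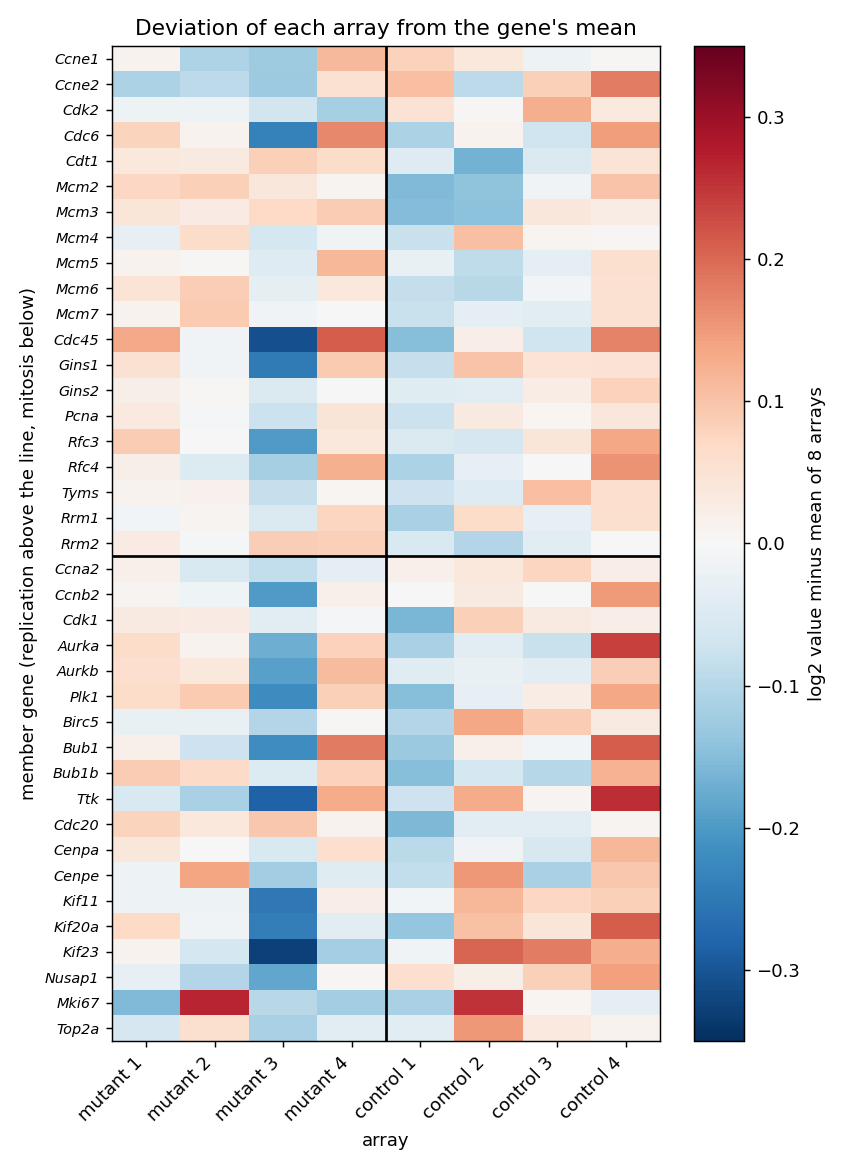
Log2 value of each gene on each array minus the gene's mean over 8 arrays, red above and blue below, mutant arrays left of the vertical line and replication genes above the horizontal line. Mutant array 3 is blue for most genes and control array 4 red, while neither group has a colour of its own.

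Other probe sets of the same genes gave a second reading. For 30 of the 39 genes there were several, and the 48 probe sets not used above differed by -0.30 to 0.30, with 29 above 0 and 19 below. Those of the replication class leaned above 0, with every such probe set of the Mcm genes above it. Those of the mitosis class were near even. With the mean of all probe sets of a gene, 12 of 20 replication and 6 of 19 mitosis genes were above 0. None of the 48 passed over all 45101 probe sets, of which 381 did. For 21 of the 30 genes all probe sets shared 1 sign. Kif23's next probe set read -0.30 and its dimmest 0.11. Highest of the 48 was the other probe set of Bub1, at 0.30 (limma adjusted p = 0.504 over all probe sets), against -0.05 for its brightest.

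Further genes of both processes, listed by function, also gave 0 calls by limma. Of 48 other replication genes, 23 were above 0 and 25 below (median -0.0031), and 4 had an unadjusted p under 0.05 (8.33%, against 13.5% of all genes). Fen1, the flap nuclease that trims Okazaki fragments, read 12.64, 12.55, 12.65 and 12.70 in mutants, against 12.29, 12.38, 12.37 and 12.49 in controls. Its groups did not overlap, with a log2 fold change of 0.25 ± 0.0712 (adjusted p = 0.124). It passed when limma's variance was robust and followed a trend with level (adjusted p = 0.0152) and with array weights (0.0273). Dut, the enzyme that keeps uracil out of DNA, differed by 0.25 ± 0.0871 (adjusted p = 0.219) and passed with array weights (0.0412).

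Of 61 other mitosis genes, 20 were above 0 and 41 below (median -0.03). An unadjusted p under 0.05 was found for 5, all lower in mutants, or 8.20%, near the 8.95% of all genes with such a p and a lower value in mutants. Cdc25b, a phosphatase that frees Cdk1 for mitosis, read 8.55, 8.60, 8.13 and 8.54 in mutants, against 8.72, 8.73, 8.97 and 8.83 in controls (-0.36 ± 0.113, adjusted p = 0.182). No mutant reached the lowest control, and with array weights it passed (adjusted p = 0.041). Anln, an actin binder of the cleavage furrow, differed by -0.25 ± 0.0822 (adjusted p = 0.206). Racgap1, the binding partner of Kif23 in the central spindle, was picked out after its values were seen and differed by -0.21 ± 0.0833 (adjusted p = 0.304), with the mutants below the controls. Others of this list went the other way or stayed near 0, such as Ect2 (0.11) and Kif22 (-0.0019). Spc25 (-0.19) had a smaller unadjusted limma p than Racgap1, 0.0183 against 0.0311.

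Among 23 E2F, RB and DREAM regulators, 10 were above 0, 13 below and 0 past the test, while 4 had an unadjusted p under 0.05 (17.4%, against 13.5% of all genes), 2 of them higher and 2 lower in mutants. Rbl2, the p130 pocket protein of DREAM, read 6.71, 6.81, 5.86 and 6.46 in mutants, against 7.23, 7.27, 7.37 and 6.91 in controls. The groups did not overlap, and the log2 fold change was -0.74 ± 0.195 (adjusted p = 0.104, or 0.0172 with array weights). E2f5, an E2F that works with pocket proteins to repress, differed by 0.38 ± 0.113 (adjusted p = 0.149), and passed with array weights (0.0187) and without control replicate 4 (0.0357).

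**Figure D4:**
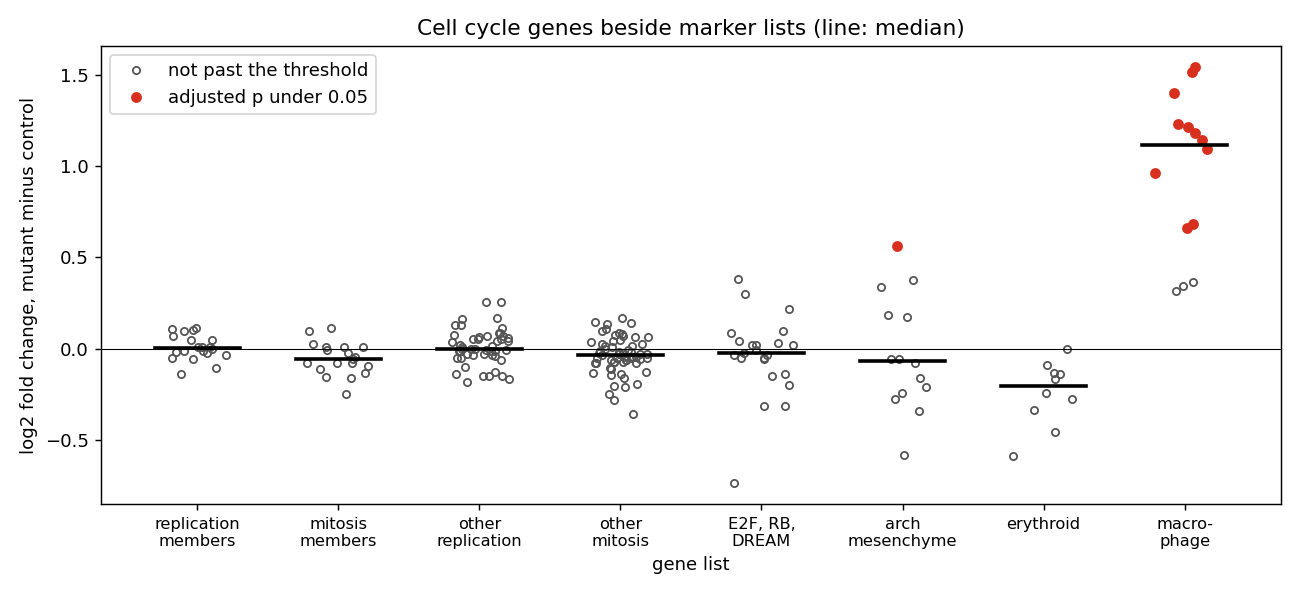
Log2 fold change of every measured gene of 8 lists, mutant minus control, with the median as a line and genes past the threshold filled in red. The cell cycle lists sit around 0, while macrophage genes lie above it, 11 of 14 of them in red.

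Among markers of other cell types the test named mainly those of macrophages. Of 14, 11 rose and 0 fell (median log2 fold change 1.12), and their summed linear level was 5278 to 7396 in mutants, against 2833 to 3176 in controls. Of 10 erythroid markers 0 passed and 10 were below 0 (median -0.20), with sums of 59345 to 66396 in mutants and 63682 to 69516 in controls. Epithelial sums were 5683 to 9478 in mutants and 8105 to 10391 in controls. Muscle precursor sums were 3831 to 9078 in mutants and 3737 to 13132 in controls, and endothelial sums 3854 to 4921 in mutants and 4150 to 4617 in controls. These 3 lists had 0 genes past the test. Of 12 neuron markers, 4 were above 0 and 8 below (median -0.16), with Gap43 higher (1.34) and Tubb3 lower (-1.67) in mutants and 10 not past the test. Their sums were 3755 to 4266 in mutants and 2873 to 3425 in controls, and without Gap43 they were 1343 to 1773 in mutants and 1823 to 2434 in controls. The order of the groups in this sum therefore turned on Gap43. Arch mesenchyme sums were 26359 to 29550 in mutants and 29902 to 35113 in controls. Such a sum is weighted to bright genes, here Prrx1 (-0.34) and Hand2 (-0.27), and none was taken without them. Of the 14 markers, 5 were above 0 and 9 below. Whether the makeup of the tissue bears on the cell cycle values was not tested.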

How the data were processed

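The deposited values are log2 expression per probe set for 8 arrays, which the authors made with RMA (per the submitters' processing notes, with no version). RMA corrects background, equalizes arrays and summarizes probes, and it compresses differences of dim probe sets. Of 45101 probe sets, 34958 had 1 gene symbol in the platform annotation, and 34754 of these matched RefSeq (GRCm38.p6) by Entrez identifier, with 0 renamed. Probe sets with several symbols (932) or none (9211) were not named. Each of 18194 genes was represented by its brightest probe set. Mutants were compared with controls by lmFit and eBayes of limma 3.58.1 under R 4.3.3, with no further term, and Benjamini-Hochberg adjustment ran over all genes at a threshold of 0.05. SE and 95% intervals are from this fit, SD is over arrays, and the number of arrays limits precision. The steps were tested on simulated data with independent noise for each gene and no effect shared by an array, unlike these arrays. The members, lists and tests were chosen with earlier results of these data known. All 40 members could be named. Values per array were given for the 3 highest and 3 lowest of each class, for Pcna and Mki67, chosen after their values were seen, and for several genes of the other lists. Msx1 was likewise named after its values were seen. Of the 3 other cell cycle lists, the 2 genes with the smallest p were named. From the other mitosis list, Racgap1, Ect2, Kif22 and Spc25 were named as well, after their values were seen. Summed marker levels are sums of unlogged values. Alternatives changed the probe set rule, the normalization, the filter on dim genes, the variance model, array weights, the threshold, the class of Ccna2 and the arrays used.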

Additional observations from a re-analysis of the deposited data

Results flagged for a closer look

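In 78 groups of 4 values (39 genes in mutants and in controls), 7 held an array far from the other 3, by Dixon's ratio of its gap to the whole range being above the 95% critical value. Chance flags about 1 group in 20 where groups are independent. These 78 groups share the same 8 arrays, and the rate over all genes was not computed. The count of 7 is therefore not a result about these genes. Mutant array 3 was the low one for Plk1 (0.914), Tyms (0.901), Ccnb2 (0.855), Kif11 (0.843) and Bub1b (0.832). Mutant array 2 was the high one for Mki67 (0.865), and control array 4 the high one for Aurkb (0.883).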

How the results depend on the processing

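None of the 39 genes passed under any of the 17 alternatives, and the lowest adjusted p was 0.116, for Kif23 with array weights, in a range of 0.116 to 0.577. Of the 39, 21 kept their sign under all alternatives (10 replication, 11 mitosis), though several alternatives, such as the variance model and the threshold, cannot change a sign. The median change of the replication genes ran from -0.03 to 0.04 and that of the mitosis genes from -0.10 to -0.03. With arrays centred on their median, 7 of 20 replication and 2 of 19 mitosis genes were above 0, with quantile normalization once more 13 and 8. The count of all genes past the threshold was 390, against 620 with quantile normalization once more, 1356 with array weights and 664 at an adjusted p under 0.1, and it ran from 104 to 618 when 1 array was left out (198 without mutant replicate 1, 618 without mutant 3, 108 without mutant 4, and 151, 109 and 104 without control 1, 2 and 3). The cause was not tested. Among other replication genes the count of 0 became 1 with a trend and robust variance (Fen1) and 2 with array weights (Fen1 and Dut), and among other mitosis genes 1 with array weights (Cdc25b). The labels do not say whether replicate numbers pair the samples, and so few correlations cannot decide it. Deviations of same-numbered arrays correlated at 0.03, 0.0019, -0.12 and 0.41 over all genes. The last, mutant 4 with control 4, was the highest of any mutant with any control. With the number as a replicate block 293 genes passed and 0 of the 39, with a lowest adjusted p of 0.407.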
